A study of Mus musculus with 6 samples.

Results

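Macrophages secrete factors that drive fibroblasts and blood vessels during wound repair and scarring. The genes described here encode 10 such proteins: the growth factors Pdgfa, Pdgfb, Vegfa, Vegfb and Igf1, the cytokine Osm, the matrix proteins Fn1 and Thbs1, and the protease inhibitors Timp1 and Timp2. They were found by symbol in the deposited table, where each of the 10 matched 1 of 22063 gene rows. The rule names the genes by function and uses no measured value. The 10 were, however, chosen with earlier results of these data known.

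RNA sequencing measured 6 samples of mouse macrophages, 3 of CAR-Trem2-Ms and 3 of CAR-Ms. Both groups were grown for 7 days in complete DMEM with 20 ng/mL of M-CSF, which drives precursors to become macrophages, and lentiviral infection gave both a chimeric antigen receptor (CAR), an engineered protein that lets a cell recognise a selected surface molecule. The CAR-Trem2-Ms had TERM2+ in the genotype field, and their own treatment label added 1 µM VD3 for 24 h and sorting by flow cytometry, whereas the CAR-Ms had WT as genotype and the virus alone as treatment. A protocol shared by all 6 samples also mentions VD3, so the labels leave unclear whether CAR-Ms were exposed to it. The genotype mark, the sort and perhaps VD3 therefore changed together, and every difference below is between whole preparations. The tissue field reads skin and the cell line field macrophage. The CAR's target, its promoter, the mouse strain and the number of animals are not stated in the labels.

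Library totals, in units of 1e6 reads, lay between 9.8 and 12.56 in CAR-Trem2-Ms and between 14.2 and 15.91 in CAR-Ms. Trem2 itself lay between 182.5 and 196.0 CPM (read counts scaled to library size) in CAR-Trem2-Ms and between 74.1 and 78.7 CPM in CAR-Ms, in the direction of the label. Reads from the mitochondrial genome took 13.4 to 13.8% of counts in CAR-Trem2-Ms and 4.6 to 4.7% in CAR-Ms, and without these genes the same 4 of the 10 members were called. Of 12 macrophage markers, 7 rose, 2 fell and 3 had too few reads to be tested, in a comparison where 40.9% of all tested genes were higher and 40.1% lower (the test is given below). Lyz2, Csf1r and Cd68 held the most reads, while C1qa, C1qb, C1qc and Mrc1 had at most 30 reads in any sample. Their summed level was 3750 to 3796 CPM in CAR-Trem2-Ms and 3600 to 3632 CPM in CAR-Ms.

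Platelet-derived growth factor (PDGF) is a dimer of A or B chains, encoded by Pdgfa and Pdgfb, that makes fibroblasts, smooth muscle cells and pericytes divide and migrate. Vegfa is the main growth signal for endothelial cells and is induced by low oxygen, while its relative Vegfb binds the receptor Flt1 and has weaker effects on vessel growth. Igf1 promotes growth and survival in many cell types, and Osm is a cytokine of the interleukin 6 family that acts on stromal cells. Fibronectin (Fn1) is a scaffold of the provisional matrix of wounds, thrombospondin 1 (Thbs1) restrains vessel growth and helps to release active TGF-beta, and Timp1 and Timp2 inhibit matrix metalloproteases.

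To show the regulatory DNA of the members whose levels are compared below, the 250 bases before the annotated start were taken from RefSeq promoters on build GRCm38.p6. Of the 10 members, 6 had an entry there, with 8 start sites in all, because Pdgfa and Vegfa each had a further start. Pdgfb, Osm, Fn1 and Thbs1 had no entry, so the motif counts below leave them out. Of the 8 windows, 3 held no annotated exon. These 3, of Vegfa, Vegfb and Timp1, are shown 5′ to 3′ on the gene's strand, with capitals for the motifs found in them. The Vegfa window lies at chr17:46032378-46032627 (minus strand), the Vegfb window at chr19:6987652-6987901 (minus strand) and the Timp1 window at chrX:20869916-20870165 (plus strand).
Vegfa: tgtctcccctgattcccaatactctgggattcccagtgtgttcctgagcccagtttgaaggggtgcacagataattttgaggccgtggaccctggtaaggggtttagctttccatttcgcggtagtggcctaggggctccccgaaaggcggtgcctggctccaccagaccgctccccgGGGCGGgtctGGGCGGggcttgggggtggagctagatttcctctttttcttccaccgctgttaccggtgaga
Vegfb: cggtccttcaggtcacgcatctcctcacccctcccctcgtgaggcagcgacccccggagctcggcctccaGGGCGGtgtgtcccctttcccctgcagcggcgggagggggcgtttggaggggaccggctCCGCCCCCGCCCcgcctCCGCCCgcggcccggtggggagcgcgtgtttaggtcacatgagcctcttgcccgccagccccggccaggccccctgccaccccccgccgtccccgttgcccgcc
Timp1: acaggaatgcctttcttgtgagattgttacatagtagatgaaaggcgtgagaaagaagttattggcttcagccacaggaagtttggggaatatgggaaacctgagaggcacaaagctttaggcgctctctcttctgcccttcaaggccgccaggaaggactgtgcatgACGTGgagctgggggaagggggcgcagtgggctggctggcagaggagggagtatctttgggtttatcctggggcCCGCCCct

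The motifs searched, on both strands, were GGGCGG (the GC box of Sp1), ACGTG (the core of sites for hypoxia-inducible factor, HIF), TGANTCA (AP-1), TTCNNNGAA (STAT) and TGACGTCA (CRE). Vegfb had 4 GC boxes, Vegfa had 2, whose first bases lay 72 and 62 bases before the start, and Timp1 had 1. Timp1 also had an ACGTG core 82 bases before the start. Of the 8 member windows, 7 held a GC box, against 32.7% of 32851 promoter windows of all genes, and 2 held ACGTG, against 16.6%. Besides that of Timp1, the ACGTG lay in the further Vegfa window, which holds exon sequence of Vegfa itself. Pdgfa and Vegfa each enter these counts with more than 1 window. TGANTCA was found in 1 of the 8 windows, that of Igf1, against 6.75% of all windows. TTCNNNGAA and TGACGTCA were in 0 of the 8, against 7.02% and 1.55%. The Vegfb window was 76.4% G and C, the Vegfa window 59.2% and the Timp1 window 54.4%, where the median over all windows was 52.4%.

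Pdgfb rose about 6-fold in CAR-Trem2-Ms, while Pdgfa, Vegfa and Osm fell by a factor of between 1.58 and 1.96. Vegfb, Timp1 and Igf1 did not pass the test, and Fn1, Thbs1 and Timp2 had too few reads to be tested. The 7 tested members thus split into 1 that rose, 3 that fell and 3 that did not pass. The count is to be read against a background in which 81.1% of 11402 tested genes changed (edgeR's quasi-likelihood test, Benjamini-Hochberg adjusted p under 0.05), 40.9% higher and 40.1% lower. Among the 7 tested members, the groups did not overlap in CPM for the same 4, and they did not overlap for 81.8% of all tested genes. The share of members that changed was thus below that of all tested genes, and a call alone says little here. The median log2 fold change was -0.66 over the 7 tested members and 0.03 over all tested genes. In bulk RNA, fewer cells that make a transcript and less of it per cell cannot be told apart.

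Pdgfb (ENSMUSG00000000489, chromosome 15, 79995874 to 80014977, minus strand, GRCm38) read 84.9, 91.7 and 84.5 CPM in CAR-Trem2-Ms replicates 1, 2 and 3, and 13.2, 14.9 and 15.3 CPM in CAR-Ms replicates 1, 2 and 3. The groups did not overlap, and every CAR-Trem2-Ms sample lay far above every CAR-Ms sample. Its mean was 87.0 ± 4.04 CPM in CAR-Trem2-Ms and 14.5 ± 1.1 CPM in CAR-Ms (SD, n = 3 each). This 6.0-fold rise was 2.59 ± 0.08 on the log2 scale (SE; edgeR adjusted p = 7.5e-22). Only 2.82% of tested genes had a larger log2 fold change than Pdgfb.

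Pdgfa (ENSMUSG00000025856, chromosome 5, 138976014 to 138997370, minus strand) went the other way. It read 7.19, 7.65 and 8.54 CPM in CAR-Trem2-Ms, and 16.5, 16.5 and 13.0 CPM in CAR-Ms. The groups did not overlap, with CAR-Ms replicate 3 nearest to the CAR-Trem2-Ms values. Pdgfa fell by 0.97 ± 0.15 on the log2 scale (SE; edgeR adjusted p = 1.5e-06), with means of 7.79 ± 0.68 CPM in CAR-Trem2-Ms and 15.3 ± 1.97 CPM in CAR-Ms (SD, n = 3 each). An antisense gene, 6330403L08Rik, covers 26.1% of the exon bases of Pdgfa, and without stated strand its reads could not be told apart from those of Pdgfa.

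The balance between the PDGF chains was compared within each sample, where library scaling cancels. There were 11.8, 12 and 9.9 Pdgfb reads per Pdgfa read in the 3 CAR-Trem2-Ms samples, and 0.80, 0.90 and 1.17 in the 3 CAR-Ms samples. The log2 ratio averaged 3.48 ± 0.15 in CAR-Trem2-Ms and -0.08 ± 0.28 in CAR-Ms (SD, n = 3 each), a difference of 3.56, many times the spread between replicates. The exact two-sided permutation test gave p = 0.1 for this ratio, the smallest value that 3 samples against 3 allow, and 0.1 after Benjamini-Hochberg adjustment over the 3 ratios compared in all. Per length, in the authors' deposited TPM (transcript abundance scaled to length and library), Pdgfb made up 83.7 to 87.1% of the 2 chains' sum in CAR-Trem2-Ms and 31.4 to 39.5% in CAR-Ms. Transcripts of the PDGF receptors were scarce: Pdgfra had 1 to 2 reads per sample in CAR-Trem2-Ms and 0 to 3 in CAR-Ms, and Pdgfrb 2 to 4 in CAR-Trem2-Ms and 1 to 2 in CAR-Ms. The other PDGF ligands were as low, with 0 reads of Pdgfc in all 6 samples and 0 to 1 of Pdgfd.

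**Figure D1:**
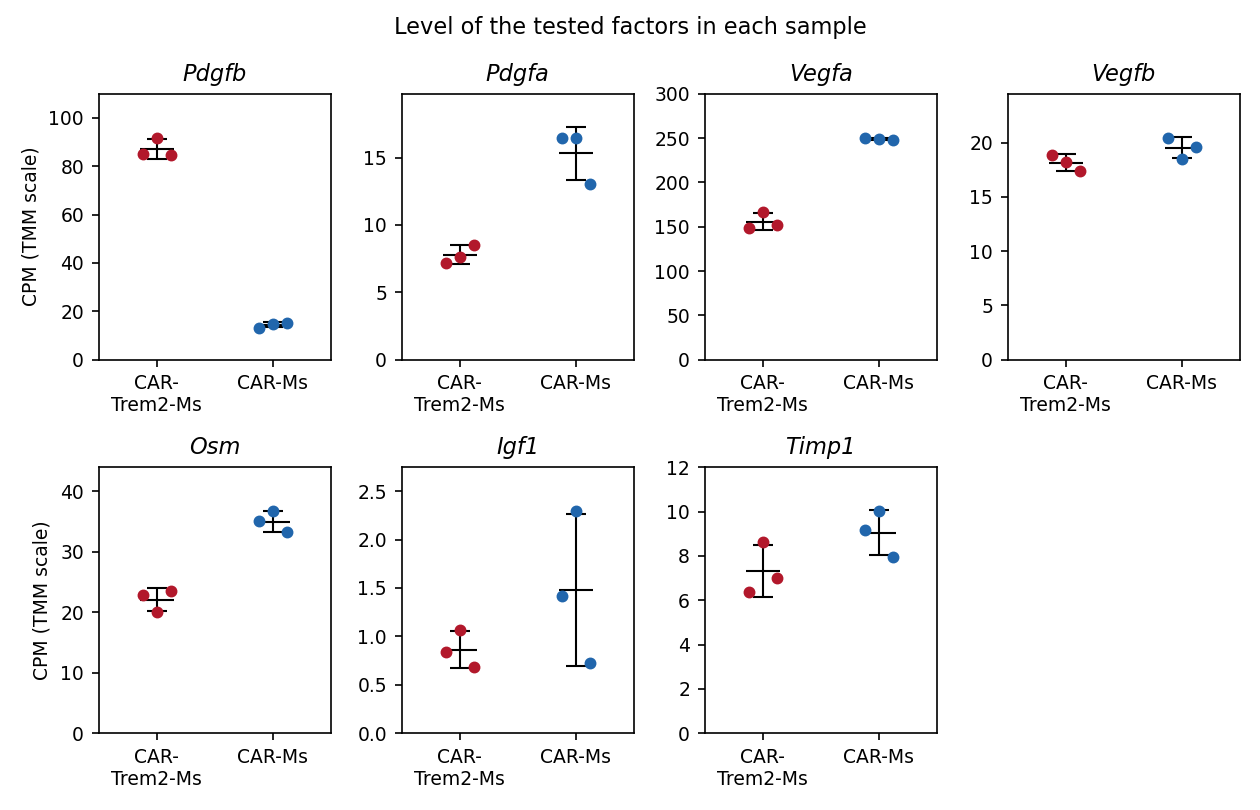
Level of each of the 7 tested factors, in CPM on the TMM scale, with 1 point per sample, CAR-Trem2-Ms left and CAR-Ms right in each panel; bars show the mean and SD (n = 3 each) and each vertical axis starts at 0. Pdgfb stands at 84.5 to 91.7 CPM in CAR-Trem2-Ms and 13.2 to 15.3 CPM in CAR-Ms, Pdgfa, Vegfa and Osm are lower in every CAR-Trem2-Ms sample, and the groups overlap for Vegfb, Igf1 and Timp1.

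Vegfa (ENSMUSG00000023951, chromosome 17, 46016993 to 46032369, minus strand) was the most abundant of the 10 in both groups. Its level was 148.4, 167.2 and 152.2 CPM in CAR-Trem2-Ms and 250.4, 248.9 and 248.0 CPM in CAR-Ms, without overlap. Means were 155.9 ± 9.92 CPM in CAR-Trem2-Ms and 249.1 ± 1.19 CPM in CAR-Ms (SD, n = 3 each). Vegfa fell by 0.68 ± 0.04 on the log2 scale (SE; edgeR adjusted p = 2.3e-15), that is 1.6-fold.

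Vegfb (ENSMUSG00000024962, chromosome 19, 6982473 to 6987651, minus strand) read 18.9, 18.2 and 17.4 CPM in CAR-Trem2-Ms and 20.4, 18.5 and 19.6 CPM in CAR-Ms. These ranges overlapped, and the log2 fold change of -0.10 ± 0.11 (SE) did not pass (edgeR adjusted p = 0.403). Whether Vegfb was called rested on the processing. With a correction for transcript GC content and length it was called lower at -1.03, where the median of all tested genes was -0.01. On log2(TPM + 1) it was called at -0.78, but there that median was itself -0.63. With upper quartile factors it was 0.13 and not called, beside a median of 0.26. Relative to the medians, only the GC and length correction set Vegfb far below the other genes. The longest Vegfb transcript is 1281 bases long with 62.6% G and C, against medians of 3376 bases and 49.8% over tested genes.

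Within samples, Vegfa reads per Vegfb read were 7.85, 9.2 and 8.74 in CAR-Trem2-Ms and 12.3, 13.4 and 12.6 in CAR-Ms, without overlap. The log2 difference was -0.57, with SDs of 0.12 in CAR-Trem2-Ms and 0.07 in CAR-Ms (n = 3 each; exact two-sided permutation p = 0.1, the smallest possible, and 0.1 after adjustment over 3 ratios). The correction for GC content and length, added after the values were seen, turned this difference to 0.32, again without overlap, so no direction is given for the balance of the VEGF genes. Of their receptors, Flt1 and Kdr had too few reads to be tested, Flt1 with 3 to 11 reads per sample in CAR-Trem2-Ms and 8 to 18 in CAR-Ms, and Kdr with 1 to 4 in CAR-Trem2-Ms and 0 to 1 in CAR-Ms. Among the co-receptors, Nrp1 rose by 1.54 ± 0.23 (log2, SE) to 9.23 ± 2.01 CPM in CAR-Trem2-Ms, against 3.18 ± 0.56 CPM in CAR-Ms, and Nrp2, named after its values were seen, fell by 0.67 ± 0.03.

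Osm (ENSMUSG00000058755, chromosome 11, 4236420 to 4241026, plus strand) had 22.8, 20.0 and 23.5 CPM in CAR-Trem2-Ms and 35, 36.7 and 33.3 CPM in CAR-Ms. No CAR-Trem2-Ms sample reached the lowest CAR-Ms sample. Osm fell by 0.66 ± 0.10 on the log2 scale (SE; edgeR adjusted p = 4.5e-07), a 1.58-fold change between means of 22.1 ± 1.86 CPM in CAR-Trem2-Ms and 35 ± 1.7 CPM in CAR-Ms (SD, n = 3 each). Its specific receptor chain Osmr had 1 to 4 reads per sample in CAR-Trem2-Ms and 0 to 1 in CAR-Ms. Il6st, the shared signalling chain, was named after its values were seen and fell by 0.56 ± 0.04.

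Igf1 (ENSMUSG00000020053, chromosome 10, 87858265 to 87937042, plus strand) was scarce, with 10, 10 and 8 reads in CAR-Trem2-Ms and 21, 38 and 11 reads in CAR-Ms. In CPM the groups overlapped, at 0.84, 1.06 and 0.68 in CAR-Trem2-Ms and 1.42, 2.29 and 0.72 in CAR-Ms. CAR-Ms replicate 2 was high and replicate 3 lay within the CAR-Trem2-Ms range. The log2 fold change of -0.80 ± 0.49 (SE) did not pass (edgeR adjusted p = 0.129). Without CAR-Ms replicate 3 it was -1.13 and was called (adjusted p = 0.0461), and without CAR-Ms replicate 2 it was -0.33, so 1 library decided the call. Corrected for GC content and length it was -0.26 and not called (edgeR adjusted p = 0.634). On log2(TPM + 1), where the median of all tested genes was -0.63, it was called, at -0.85 (limma adjusted p = 0.0223). The 28 CAR-Trem2-Ms reads behind that value are few.

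Fn1 (ENSMUSG00000026193, chromosome 1, 71585520 to 71653200, minus strand) was covered by 7, 5 and 20 reads in CAR-Trem2-Ms and 8, 10 and 19 reads in CAR-Ms, with overlapping groups, replicate 3 being the highest in each. The 32 reads of CAR-Trem2-Ms and 37 of CAR-Ms gave a ratio of 1.12 relative to library totals, with a 95% interval of 0.67 to 1.84 (exact conditional binomial, counting error only). No difference in Fn1 was detectable at this depth. An antisense gene covers 2.5% of its exon bases.

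Thbs1 (ENSMUSG00000040152, chromosome 2, 118111876 to 118127133, plus strand) was covered by 10, 4 and 4 reads in CAR-Trem2-Ms and 2, 7 and 2 reads in CAR-Ms. The ratio of its 18 reads in CAR-Trem2-Ms to its 11 in CAR-Ms, relative to library totals, was 2.11, and its 95% counting interval of 0.95 to 4.95 included 1. CAR-Trem2-Ms replicate 1 and CAR-Ms replicate 2 were the high samples, and the groups overlapped.

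Timp1 (ENSMUSG00000001131, chromosome X, 20870166 to 20874735, plus strand) stood at 6.35, 8.61 and 7.00 CPM in CAR-Trem2-Ms and 9.17, 10.01 and 7.97 CPM in CAR-Ms. CAR-Trem2-Ms replicate 2 exceeded CAR-Ms replicate 3, so the groups overlapped. The log2 fold change of -0.32 ± 0.18 (SE) did not pass (edgeR adjusted p = 0.105), between means of 7.32 ± 1.16 CPM in CAR-Trem2-Ms and 9.05 ± 1.03 CPM in CAR-Ms (SD, n = 3 each). Without CAR-Trem2-Ms replicate 2 it was -0.44 (adjusted p = 0.0371), and with total-count scaling -0.44 (adjusted p = 0.0261), each past the threshold. Corrected for GC content and length it was -0.99, and on log2(TPM + 1) -0.98, both called. These 2 values are not alike, because the median of all tested genes was -0.01 after the correction and -0.63 on log2(TPM + 1).

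Timp2 (ENSMUSG00000017466, chromosome 11, 118301069 to 118355740, minus strand) was covered by 13, 9 and 7 reads in CAR-Trem2-Ms and 4, 7 and 4 reads in CAR-Ms. The groups met at 7 reads but did not overlap in CPM. Relative to library totals, its 29 reads in CAR-Trem2-Ms and 15 in CAR-Ms gave a ratio of 2.5, with a counting interval of 1.3 to 5.01. The reads were too few for the main test. With no filter on low counts, edgeR gave a log2 fold change of 1.39 and an adjusted p of 0.117, and of the 4 single samples whose removal let the gene be tested, only that of CAR-Trem2-Ms replicate 3 gave a call (1.65, adjusted p = 0.0272).

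There were 5.85, 9 and 11.7 Timp1 reads per Timp2 read in CAR-Trem2-Ms, against 34, 23.7 and 30.2 in CAR-Ms, without overlap. The log2 difference was -1.77, with SDs of 0.51 in CAR-Trem2-Ms and 0.27 in CAR-Ms (n = 3 each). The exact two-sided permutation p of 0.1 was again the smallest possible, and it was 0.1 after adjustment over 3 ratios. The ratio rests on 4 to 13 reads of Timp2 per sample, and Timp1 made up 95.7 to 99.3% of the summed TPM of both inhibitors in every sample.

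**Figure D2:**
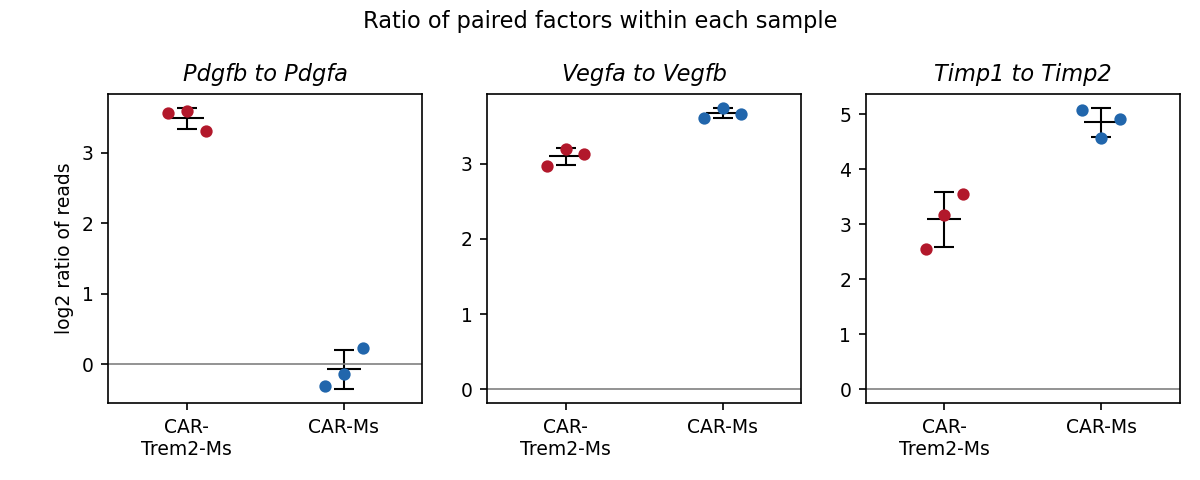
Log2 ratio of reads of 2 related factors within each sample, with 1 point per sample, CAR-Trem2-Ms left and CAR-Ms right; bars show the mean and SD (n = 3 each) and the grey line marks equal reads. The groups do not overlap in any of the 3 ratios, with means of 3.48 in CAR-Trem2-Ms and -0.08 in CAR-Ms for Pdgfb to Pdgfa, and the Vegfa to Vegfb difference turned sign after a correction for GC content and length.

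**Figure D3:**
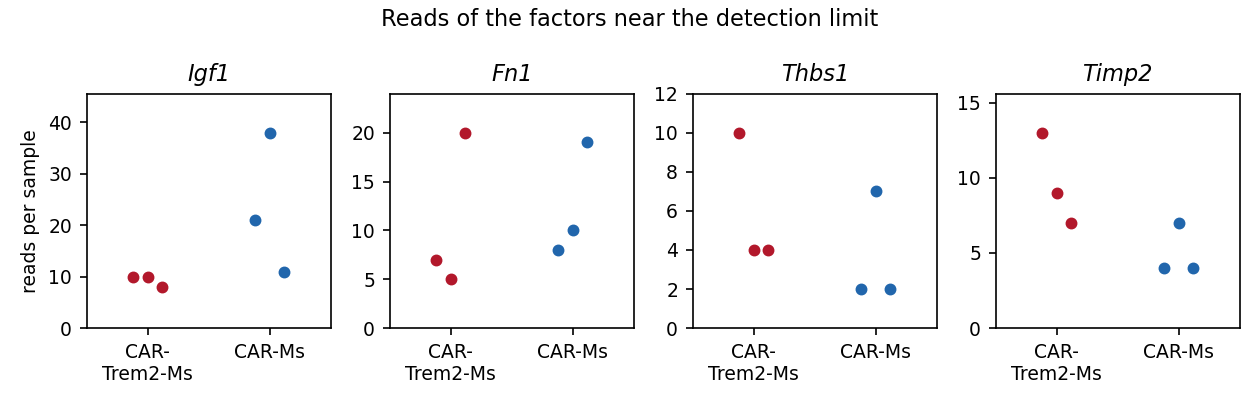
Raw reads per sample of the 4 factors near the detection limit, CAR-Trem2-Ms left and CAR-Ms right, each vertical axis from 0. No sample holds more than 38 reads of any of them, and the groups overlap in reads for Fn1, Thbs1 and Timp2.

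The order of the factors was compared per length, as TPM. In CAR-Trem2-Ms Vegfa came first at 52.8 ± 3.58 TPM, followed by Pdgfb at 33.5 ± 3.92, Vegfb at 18.6 ± 0.54, Timp1 at 12.6 ± 2.0, Osm at 10.5 ± 0.86 and Pdgfa at 5.88 ± 0.3 (SD, n = 3). Timp1 and Osm overlapped there, and the other neighbours did not. In CAR-Ms Vegfa stood at 130.2 ± 1.46 TPM, Vegfb at 32.7 ± 1.57, Osm at 26.9 ± 1.24, Timp1 at 25.7 ± 2.81, Pdgfa at 17.6 ± 1.65 and Pdgfb at 9.16 ± 0.99 (SD, n = 3), with only Osm and Timp1 overlapping. Pdgfb thus ranked 2 of 10 in CAR-Trem2-Ms and 6 of 10 in CAR-Ms. Igf1 followed at 0.68 ± 0.69 TPM in CAR-Trem2-Ms and 1.88 ± 0.28 TPM in CAR-Ms, and Fn1, Timp2 and Thbs1 were below 1 TPM in every sample. Vegfa exceeded 92.1% of the table's genes in mean TPM in CAR-Trem2-Ms and 94.9% in CAR-Ms, and Pdgfb 87.0% in CAR-Trem2-Ms and 63.6% in CAR-Ms.

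Another scaling factor shifts all members nearly alike. Over all tested genes the median was 0.03 (TMM), 0.26 (upper quartile), -0.10 (total counts) and -0.63 on log2(TPM + 1), so the members are read relative to these medians. On log2(TPM + 1) this is only a rough guide, because the members did not move alike. From TMM to log2(TPM + 1), Igf1 went from -0.80 to -0.85 and Pdgfb from 2.59 to 1.76. Pdgfb rose under each of the 20 alternatives, at log2 values from 1.76 to 2.82. The falls of Vegfa, Osm and Pdgfa also kept their direction and an adjusted p under 0.05 under every scaling. Their smallest sizes, with upper quartile factors, were -0.45 for Vegfa, -0.43 for Osm and -0.74 for Pdgfa, and none of these 3 reached a 2-fold change with TMM factors. The authors' deposited table has the same signs, with log2 fold changes of 1.87 for Pdgfb, -1.58 for Pdgfa, -1.3 for Vegfa and -1.35 for Osm. These match ratios of group mean TPM and are not a separate estimate from counts. The nearest median at hand is the -0.63 on log2(TPM + 1), which is another measure over 10824 filtered genes. A median of the authors' own values was not computed.

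**Figure D4:**
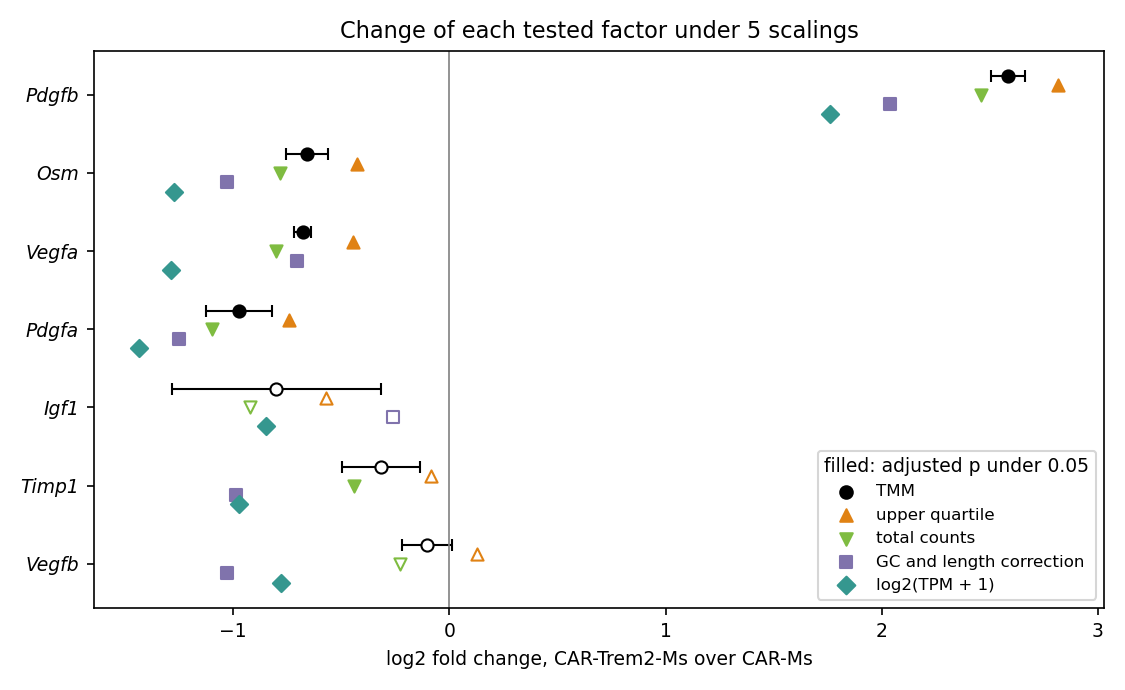
Log2 fold change, CAR-Trem2-Ms over CAR-Ms, of the 7 tested factors under 5 scalings; symbols are filled where the adjusted p was under 0.05, and bars on the TMM value show its SE. Pdgfb lies between 1.76 and 2.82, Osm, Vegfa and Pdgfa lie below 0 under every scaling, and Vegfb runs from -1.03 to 0.13.

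Among 35 other growth factors, cytokines and related secreted proteins, mostly of other families, 12 passed the read filter. Pdgfc, Pdgfd, Vegfc, Vegfd, Pgf and Igf2 had too few reads to be tested. There were 7 that rose, 2 that fell and 3 without a call (median log2 fold change 0.49, against 0.03 over all tested genes, and -0.18 on log2(TPM + 1), against -0.63 over all genes there). Grn, the growth factor progranulin, rose by 2.54 ± 0.02 (SE), to 2028 ± 49.2 CPM in CAR-Trem2-Ms, against 349.2 ± 5.48 CPM in CAR-Ms. Egf, the epidermal growth factor, rose by 1.95 ± 0.25, Angptl2, an angiopoietin-like secreted protein, by 1.88 ± 0.20, and Ecm1, a secreted matrix protein, by 1.56 ± 0.15. The 2 that fell were named after their values were seen: Angpt2, which modulates the endothelial receptor Tek, fell by 1.24 ± 0.22, and Hbegf, an EGF family ligand, fell by 0.73 ± 0.21. Hgf, a growth factor that stromal cells make, had 0 reads in all 6 samples.

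Of the receptors that bind the 10 proteins, 17 of 28 passed the read filter, 7 of them higher and 10 lower (median -0.53). The fibronectin-binding integrin chain Itga4 fell by 2.69 ± 0.02, to 284.5 ± 9.30 CPM in CAR-Trem2-Ms, against 1830 ± 11.4 CPM in CAR-Ms. Itgav, a chain of matrix-binding integrins, fell by 1.24 ± 0.07, and Sdc1, a heparan sulfate proteoglycan, also fell (log2 -1.94 ± 0.15). Itga5, the partner of Itgb1 in the main fibronectin receptor, rose by 0.55 ± 0.04, whereas Itgb1 itself fell by 1.14 ± 0.03. Both chains were named after their values were seen. Igf1r, the receptor of Igf1, had 3 to 5 reads per sample in CAR-Trem2-Ms and 1 to 3 in CAR-Ms.

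Of 12 genes that bind Igf1 or control its release, 4 were tested (median -0.10). Igfbp4, an IGF-binding protein, fell by 0.20 ± 0.06, with 79.5 ± 6.61 CPM in CAR-Trem2-Ms and 91.3 ± 3.97 CPM in CAR-Ms. This fall was smaller than the move of the all-gene median from 0.03 with TMM to 0.26 with upper quartile factors. Its sign against 0 may therefore rest on the scaling, although with TMM it lay below the all-gene median. The other tested genes of this list were named after their values were seen. Igfbp6 rose by 2.72 ± 0.61 from few reads, 9 to 26 per sample in CAR-Trem2-Ms against 1 to 7 in CAR-Ms. Stc1 fell by 2.43 ± 0.70, also from few reads, 0 to 5 per sample in CAR-Trem2-Ms against 13 to 26 in CAR-Ms. Stc2 did not pass.

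Matrix proteins other than Fn1 and Thbs1 were mostly near the detection limit, with 30 of 46 at 20 reads or fewer in every sample. Of the 17 tested, the counts were 6 higher, 2 lower and 9 without a call (median -0.03, which turned sign under several alternatives). Spp1, which encodes osteopontin, rose by 1.86 ± 0.02, Loxl3, a lysyl oxidase that crosslinks collagen, by 1.70 ± 0.14, and Col18a1, the source of endostatin, by 1.08 ± 0.21, beside Ecm1. Of 32 metalloproteases and their other inhibitors, 10 were tested, with 5 higher, 3 lower and 2 without a call (median 0.41, and -0.084 on log2(TPM + 1), where the median of all genes was -0.63). Mmp9, a gelatinase that Timp1 inhibits, rose by 0.80 ± 0.30 (edgeR adjusted p = 0.0171), with 4.75 ± 1.6 CPM in CAR-Trem2-Ms and 2.7 ± 0.82 CPM in CAR-Ms. Its reads were few, 39 to 61 per sample in CAR-Trem2-Ms and 34 to 55 in CAR-Ms, and the groups overlapped. The sheddases Adam10 (log2 -1.83 ± 0.04) and Adam9 (-0.82 ± 0.04) fell, and Adam8 rose by 0.95 ± 0.03. Timp3 and Timp4 had at most 8 reads in any sample.

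Vegfa is a target of hypoxia-inducible factors, and of 29 tested genes of that system 17 were lower, 7 higher and 5 without a call (median -0.41, and below 0 under each alternative). Among all tested genes 40.1% were lower and 40.9% higher, and a link between this system and the fall of Vegfa was not tested. Hif1a itself, named after its values were seen, fell by 0.64 ± 0.04. The glycolysis regulator Pfkfb3 fell by 2.27 ± 0.07, and lower values were also found for lactate dehydrogenase Ldha (log2 -1.62 ± 0.02), the mitophagy receptor Bnip3 (-1.36 ± 0.09) and the oxygen sensor Egln1 (-1.33 ± 0.1). Among the 7 that rose, named after their values were seen, were Car9 (log2 1.24 ± 0.33), Pfkfb4 (0.76 ± 0.11), Aldoc (0.71 ± 0.09) and Ddit4 (0.70 ± 0.08). Targets of STAT5 and STAT3, factors downstream of cytokine receptors, gave 9 higher, 2 lower and 3 without a call among 14 tested (median 0.45, and -0.12 on log2(TPM + 1), again beside -0.63 for all genes). Cebpd rose by 3.26 ± 0.09, Bcl3 by 1.61 ± 0.14, Junb by 1.59 ± 0.03 and Bcl6 by 1.31 ± 0.08, all transcription regulators. Among 18 tested targets of SRF or YAP, 9 were lower, 4 higher and 5 without a call (median -0.36). Vinculin (Vcl) fell by 1.79 ± 0.09 and the actins Actg1 (log2 -1.22 ± 0.02) and Actb (-1.12 ± 0.02) also fell, while Egr3 rose by 1.88 ± 0.24.

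**Figure D5:**
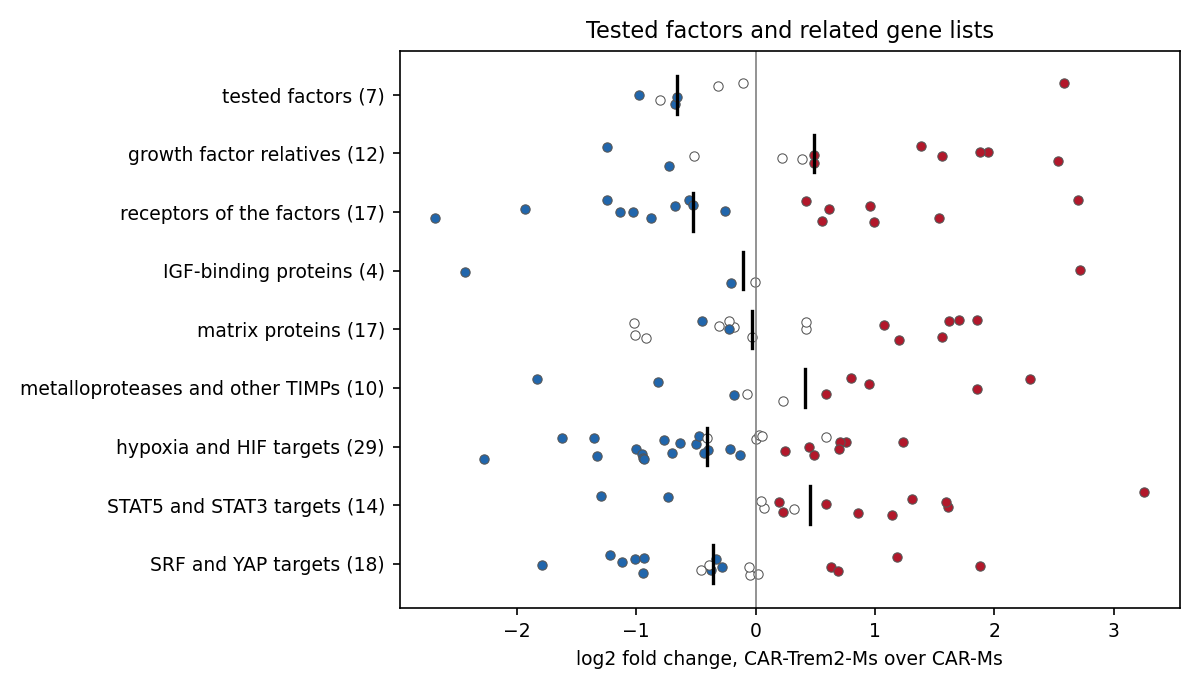
Log2 fold change, CAR-Trem2-Ms over CAR-Ms, of the 7 tested factors and of the tested members of 8 related gene lists, with the number of genes in brackets; each point is a gene, red where it rose, blue where it fell and white where it did not pass, and black bars are medians. The factors' median is -0.66 with Pdgfb apart at 2.59, and the medians of the lists run from -0.53 for the receptors to 0.49 for the other growth factors.

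Cells other than macrophages can make these factors, so their markers were read in the same samples. Fibroblast markers summed to 5.65 to 6.22 CPM over 12 genes in CAR-Trem2-Ms and 2.83 to 3.45 CPM in CAR-Ms, with 0 genes at 0 in every sample. The most abundant were Col1a1, with 5 to 11 reads in CAR-Trem2-Ms and 11 to 30 in CAR-Ms, Thy1, with 11 to 20 reads in CAR-Trem2-Ms and 2 to 12 in CAR-Ms, and Col1a2, with 4 to 17 in CAR-Trem2-Ms and 3 to 8 in CAR-Ms. Platelets are a rich source of PDGF, and their markers, 1 of 9 at 0 in every sample, summed to 4.50 to 6.22 CPM in CAR-Trem2-Ms and 8.39 to 12 CPM in CAR-Ms. In that list Itga2b and Gp1ba, both tested, fell (log2 -1.08 ± 0.25 and -0.78 ± 0.35), and Tubb1 had 1 to 14 reads in CAR-Trem2-Ms and 6 to 15 in CAR-Ms.

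Endothelial markers summed to 5.57 to 7.75 CPM in CAR-Trem2-Ms and 9.42 to 10.6 CPM in CAR-Ms, with 1 of 10 at 0 throughout. Egfl7 did not pass, and Pecam1 (log2 -1.57 ± 0.5) and Esam (-1.52 ± 0.46) fell. Keratinocyte markers summed to at most 0.49 CPM in CAR-Trem2-Ms and 1.34 CPM in CAR-Ms, with 5 of 8 at 0 in every sample, Dsp at 2 to 6 reads in CAR-Trem2-Ms and 7 to 17 in CAR-Ms, and Epcam and Krt14 at 0 reads in CAR-Trem2-Ms. Neutrophil markers summed to 15.2 to 17.4 CPM in CAR-Trem2-Ms and 22 to 40.3 CPM in CAR-Ms. Ngp (log2 -3.18 ± 0.34) and S100a9 (-2.3 ± 0.3) fell, and Csf3r, also made by macrophages, rose by 2.42 ± 0.23. Lymphocyte markers summed to 6.45 to 10.4 CPM in CAR-Trem2-Ms and 8.60 to 12.9 CPM in CAR-Ms, with 2 of 10 at 0 throughout. Of its 5 tested genes 2 rose and 3 fell. The B cell genes Cd79a (log2 -0.75 ± 0.31) and Ms4a1 (-3.2 ± 0.61) fell, while the T cell genes Cd8a (4.57 ± 0.73) and Trac (3.46 ± 0.69), named after their values were seen, rose. Cd8a had 17 to 23 reads per sample in CAR-Trem2-Ms and 0 to 2 in CAR-Ms, and Trac had 11 to 17 in CAR-Trem2-Ms and 1 to 2 in CAR-Ms. Dendritic cell markers summed to 2.95 to 4.38 CPM in CAR-Trem2-Ms and 2.53 to 2.89 CPM in CAR-Ms, led by Xcr1, which did not pass, Ccr7 and Zbtb46. The part of these cells in the levels of the 10 factors was not tested.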

How the data were processed

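Counts and TPM came from a single deposited table of 22063 genes. Per the file headers, the authors give raw read counts and length-scaled TPM per sample, besides their own log2 fold change, p-value and group mean signal. The submitters' processing notes list the build mm10 and the tools HISAT2, StringTie 1.3.1, Bowtie2 2.2.8 and fastp 0.18.0. The counting tool, its use of strand and the annotation are not stated in the labels or the file. Positions, transcript lengths and GC content are from GENCODE on GRCm38.

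Counts were tested with edgeR 4.0.16 (R 4.3.3, TMM factors, filterByExpr, quasi-likelihood test, group as the only term) over all 11402 genes that passed the filter. P-values were adjusted by Benjamini-Hochberg, with calls under 0.05. Levels are CPM with TMM factors; summed marker levels are CPM of library totals. Each SE was derived from a gene's fold change and F value. Alternatives were RLE, upper quartile and total-count scaling, no mitochondrial genes, 2 other filters, DESeq2 1.42.0, limma 3.58.1 (voom, and log2(TPM + 1) for genes reaching 1 TPM in at least 3 samples), a replicate block, GC and length offsets (99.8% of tested genes had both), stricter thresholds and leaving out each sample.

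Replicates differed by more than sampling noise (chi-square per degree of freedom of 2.19 to 3.34), so each was counted. Separate cultures or animals are not named for them, so a p-value here reflects sample-to-sample spread, which may be technical. Intervals cover counting error only. The 10 members and the 16 lists were chosen with earlier results of these data known. Named genes were all members, up to 4 changed genes per list with the largest fold change and at least 50 mean reads in the higher group, and the 3 markers per cell type with the most reads, of which 1 is not reported here.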

Additional observations from a re-analysis of the deposited data

How the results depend on the processing

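Of the 10 members, 4 changed with TMM factors, 7 on log2(TPM + 1) and 1, Pdgfb, with a log2 fold change of at least 1. Under that rule 3765 of all genes counted as changed, against 9245. Leaving out each sample gave 4 to 5 changed members and 8911 to 9237 changed genes. Apart from that fold rule, the 4 calls held under the 19 other alternatives. Calls added were Timp1 with total counts and without CAR-Trem2-Ms replicate 2, Timp2 without CAR-Trem2-Ms replicate 3, Igf1 without CAR-Ms replicate 3, Vegfb and Timp1 after the GC and length correction, with or without the block, and Vegfb, Timp1 and Igf1 on log2(TPM + 1). The cause was not tested.

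Vegfb turned to 0.13 with upper quartile factors, where the median of all tested genes was 0.26. Leaving out each sample, the log2 difference ranged from 3.44 to 3.71 for Pdgfb to Pdgfa, from -0.62 to -0.51 for Vegfa to Vegfb and from -2.0 to -1.50 for Timp1 to Timp2. After the GC and length correction, chosen after seeing the data, Vegfa to Vegfb turned to 0.32 and Pdgfb to Pdgfa was 3.29. Timp2 was not tested, so its ratio has no such value. On log2(TPM + 1) the share of calls that were higher fell to 21.4%, against 50.5% with TMM factors (61.3% with upper quartile factors).

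List medians that turned were those of other growth factors (-0.18), metalloproteases (-0.084) and STAT targets (-0.12) on log2(TPM + 1), where the median of all genes was -0.63, so these 3 stayed above it. The median of IGF-binding proteins turned to 0.13 with upper quartile factors, 0.37 with no filter, 0.38 in DESeq2 and 0.018 without CAR-Ms replicate 3, with -0.103 without CAR-Trem2-Ms replicate 3. That of matrix proteins turned to 0.20 with upper quartile factors, 0.19 without mitochondrial genes, 0.96 with no filter, 1.04 in DESeq2, 0.103 when corrected for GC and length (0.104 with a block), and lay between -0.041 and 0.56 without single samples.

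Same-numbered samples deviated together no more than others (correlations of 0.03, -0.03 and 0.03). No pairing by replicate number was thus seen, although 3 samples per group could miss one and the labels do not state it. With the replicate block 9188 genes and 4 members changed. Depth limits Fn1, Thbs1, Timp2 and Igf1, with 2 to 38 reads per sample.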

Other observations

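Deposited reads and TPM were not in a fixed ratio for every member. Relative to the median gene of each library, Fn1 had 0.50, 0.77 and 1.44 reads per TPM in CAR-Trem2-Ms and 3.12, 3.2 and 3.07 in CAR-Ms. Its deposited log2 fold change of 1.27, from the authors' deposited table, stands beside 32 reads in CAR-Trem2-Ms and 37 in CAR-Ms. Igf1 had 1.28, 0.28 and 0.86 in CAR-Trem2-Ms and 0.42, 0.76 and 0.29 in CAR-Ms, so it varied within both groups. Timp1 had 0.22 to 0.23 in all 6 samples. The cause was not tested.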
